A study of Mus musculus with 2 samples.

Results

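The miRNA genes Mir142, Mir223, Mir155, Mir146a, Mir150 and Mir146b, known for their work in white blood cells, were followed in the newborn mouse heart. The members were taken by name, 6 of the 1973 miRNA gene rows in the deposited count tables, and 5 of the 6 had counts in both hearts. Mir142 has no row under its own name and was read from the opposite strand of the row of Mir142b, the gene that lies over it. Each of the 2 samples was the heart of 1 pup of mouse strain B6NCrl at postnatal day 0 (age 0 days), sex not collected; pup 2 was replicate 1 and pup 3 was replicate 2, both born to the female labelled pregnant 1. No pup was treated or mutant and there was no second group, so the data describe a level and its spread over littermates.

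MicroRNAs are short RNAs that pair with messenger RNAs through their seed, the bases near the 5′ end, and lower the output of those messages. Mir142 is made in blood cells of nearly all lineages, and Mir223 in myeloid cells such as neutrophils and monocytes. Mir150 marks mature B, T and natural killer cells, Mir155 rises when lymphocytes and macrophages are activated, and Mir146a and Mir146b are switched on by inflammatory signals and restrain them. Mir155, Mir146a and Mir146b are also made by endothelial and other cells. A heart holds resident macrophages as well as the blood left in its vessels and chambers, and the sources used here do not give whether blood was washed out.

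The mature sequences below were compared with each other and with other loci; miR-150-5p was not compared. They come from the RefSeq table for GRCm38.p6, 5′ to 3′, with the seed (bases 2 to 8) in capitals. The 5′ arms of Mir146a and Mir146b share their seed; no other member arm listed here shares its seed with any of the 1679 mature miRNA names in that table.
miR-142a-3p: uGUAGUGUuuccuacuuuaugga
miR-142a-5p: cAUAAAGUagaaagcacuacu
miR-142b: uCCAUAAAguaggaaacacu
miR-223-3p: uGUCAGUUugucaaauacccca
miR-155-5p: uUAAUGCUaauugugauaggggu
miR-146a-5p: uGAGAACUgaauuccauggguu
miR-146b-5p: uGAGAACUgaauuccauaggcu
miR-150-3p: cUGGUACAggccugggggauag

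Counted from the 5′ end, miR-146a-5p and miR-146b-5p were identical over their first 17 bases and differed by G18A and U21C, so 20 of 22 bases were the same. A read that reaches base 18 can be given to one of them, and a read of 17 bases from the 5′ end fits both. For the other arms listed, the longest stretch found in the hairpin of another locus on either strand was 13 bases, between miR-142a-5p and Mir3964. No arm of a member listed here thus shared 20 bases with another hairpin in the table. This matters because reads that aligned to several places, 36.6% of all reads in replicate 1 and 37.1% in replicate 2, were given to no gene. The table held hairpins for 869 of the 1973 rows, so loci outside it were not compared.

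Mir142 and Mir142b occupy both strands of the same stretch of chromosome 11. Mir142 lies at chr11:87756864-87756927 on the plus strand, in an intron of its host transcript Mir142hg, and Mir142b at chr11:87756841-87756955 on the minus strand. The Mir142b gene covers the whole hairpin of Mir142, and all 20 bases of miR-142b are the reverse complement of bases within miR-142a-3p, so the strand of a read decides its gene. The Mir142b gene is 115 bases long and the Mir142 hairpin 64, so the count taken for Mir142 may hold reads from the flanks of the hairpin. The hairpin of Mir142, with both of its mature arms in capitals, shows why a count per gene joins the arms:
Mir142 hairpin: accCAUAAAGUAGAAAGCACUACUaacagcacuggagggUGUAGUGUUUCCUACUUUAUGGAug

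In the row of Mir142b, replicate 1 had 0 reads on the strand of Mir142b and 1580 on the strand of Mir142, and replicate 2 had 1 and 1835. The strand of Mir142 therefore held 100% of the row in replicate 1 (exact Clopper-Pearson 95% interval 99.8% to 100%) and 99.9% in replicate 2 (99.7% to 99.999%). In the rows of Mir223, Mir155, Mir146a, Mir150 and Mir146b the opposite strand had 0 reads in both hearts. Over all rows, 6.62% of reads on genes lay on the opposite strand in replicate 1 and 6.67% in replicate 2. Of 208 rows with at least 100 reads in each heart, 11 had over 90% of them on the opposite strand, as the row of Mir142b did, and 196 had under 10% there.

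**Figure D1:**
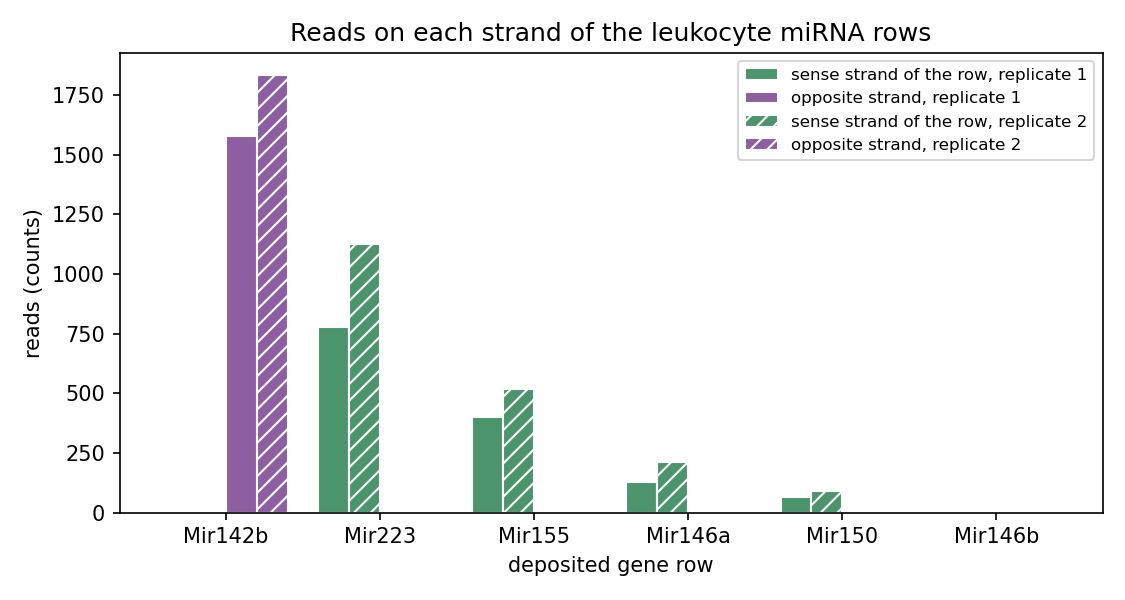
Reads (counts, vertical axis) on the sense strand of each deposited gene row (green) and on the opposite strand (purple), for replicate 1 (plain bars) and replicate 2 (hatched bars). The reads of the Mir142b row lie on the opposite strand, with 1580 and 1835 reads, and those of the other rows on the sense strand; Mir146b had 0 and 3 reads.

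Replicate 1 had 2323450 counts on the sense strand of all gene rows and replicate 2 had 3487183. Levels below are CPM, counts scaled to 1000000 of these sense counts, with exact Clopper-Pearson 95% intervals. The libraries carry no stated molecular identifiers, so several reads may stem from 1 molecule and the intervals express counting error alone. A single count was worth 0.430 CPM in replicate 1 and 0.287 CPM in replicate 2. A list of 8 miRNA genes stood for endothelium, smooth muscle, cardiac muscle and fibroblasts. Led by Mir126a, Mir143 and Mir208b, they together held 29.8% ± 0.0194 (SD, n = 2) of the sense counts. The lowest of them, Mir199a-1, had 2.08 CPM, and the next, Mir145a, 1712 CPM, above every member. Both mature arms of Mir199a-1 occur whole at Mir199a-2, so its count is uncertain. The list leaves out other muscle miRNAs that were low in these counts, such as Mir1a-1 (mean 6.38 CPM) and Mir133a-1 (mean 7.89 CPM). Neither was compared in sequence with other loci, so their counts may lack reads that aligned to several places. Their low counts are therefore no measure of their level in the heart.

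Mir142, the general blood-cell miRNA, was the highest of the members. It had 680 CPM in replicate 1 (647 to 714) and 526 CPM in replicate 2 (502 to 551), a mean of 603 ± 109 CPM (SD, n = 2). That equals 0.0603% of the number of sense counts, which do not include these reads. Replicate 1 was the higher heart and the counting intervals did not overlap. By mean level it would take rank 89 among the 1973 rows. The rows were ranked by sense counts alone, here and for every rank below. By reads on the opposite strand, the row of Mir142b had rank 8. In a bulk sample, fewer cells of a type and less of the miRNA per cell cannot be told apart, and this holds for every level given here.

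Mir223, the myeloid miRNA, lies at chrX:96242817-96242926 on the plus strand, in an exon of the noncoding transcript F630028O10Rik. It had 777 counts in replicate 1 and 1125 in replicate 2, which gave 334 CPM (311 to 359) and 323 CPM (304 to 342). Its mean of 329 ± 8.35 CPM put it at rank 110. The levels in the hearts overlapped within counting error, and its coefficient of variation of 2.54% was the smallest among the members with counts in both hearts, where Mir142 had the largest, 18.0%.

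Mir155, at chr16:84714140-84714204 on the plus strand in an exon of its host transcript Mir155hg, followed. It had 402 and 520 counts, or 173 CPM in replicate 1 (157 to 191) and 149 CPM in replicate 2 (137 to 163), a mean of 161 ± 16.9 CPM and rank 139. Mir150, the miRNA of mature lymphocytes, lies at chr7:45121757-45121821 on the plus strand, outside any other annotated gene. It was much lower, with 67 counts in replicate 1 and 90 in replicate 2, or 28.8 CPM (22.3 to 36.6) and 25.8 CPM (20.8 to 31.7), a mean of 27.3 ± 2.14 CPM and rank 216. For both genes the intervals of the hearts overlapped.

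The inflammation-induced pair was unequal. Mir146a, listed as Mir146 in GENCODE M21, lies at chr11:43374397-43374461 on the minus strand outside any other annotated gene, and had 127 counts in replicate 1 and 213 in replicate 2. These gave 54.7 CPM (45.6 to 65.0) and 61.1 CPM (53.2 to 69.9), a mean of 57.9 ± 4.54 CPM and rank 184; the level was higher in replicate 2, and the intervals overlapped. Mir146b, at chr19:46342762-46342870 on the plus strand in an intron of Mfsd13a, had 0 counts in replicate 1, where the floor of 3 counts is 1.29 CPM and the exact interval ends at 1.59 CPM, and 3 counts in replicate 2 (0.860 CPM, interval 0.177 to 2.51). Against the floor of 3 counts, Mir146a was at least 42.3-fold higher than Mir146b in replicate 1, and the exact counting interval of that ratio began at 33.9-fold; in replicate 2 it was 71.0-fold higher, with a counting interval of 24.0 to 347-fold. Mir146b was near the detection limit of both libraries.

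**Figure D2:**
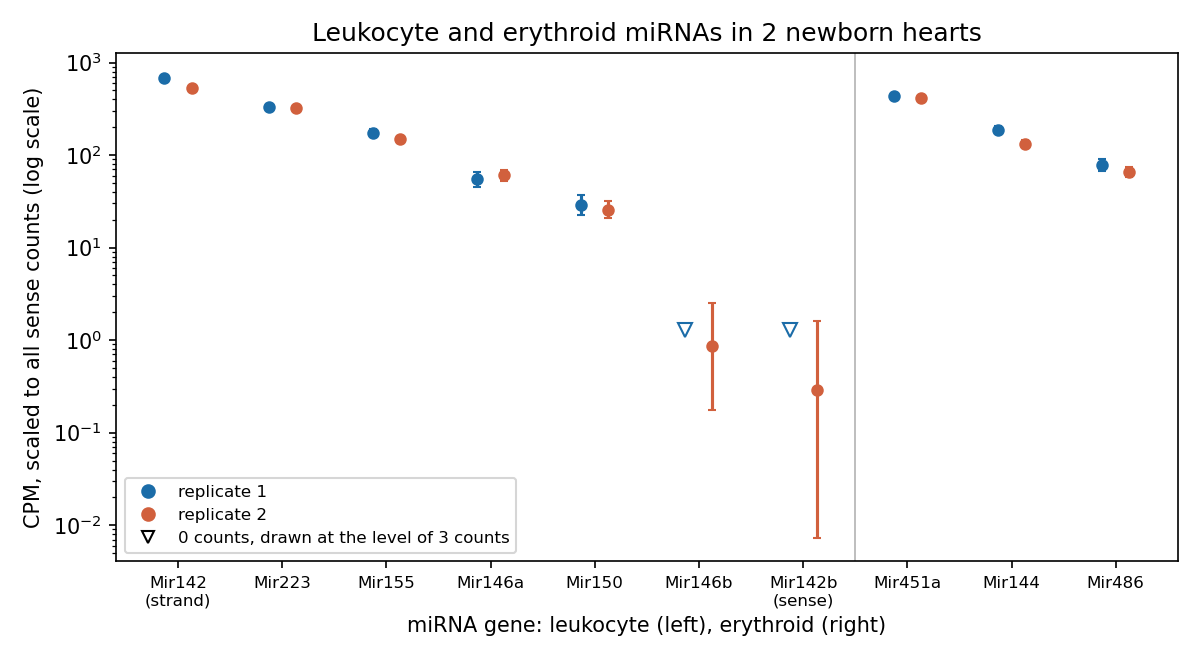
CPM (vertical axis, log scale) of each leukocyte miRNA and of 3 erythroid miRNAs in replicate 1 (blue) and replicate 2 (orange); points are levels, bars exact 95% counting intervals, and open triangles mark 0 counts, drawn at the level of 3 counts. The order Mir142, Mir223, Mir155, Mir146a, Mir150, Mir146b is the same in both hearts, from 680 and 526 CPM for Mir142 down to 28.8 and 25.8 CPM for Mir150.

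The 6 members together held 1271 CPM in replicate 1 (1226 to 1318) and 1086 CPM in replicate 2 (1051 to 1121), a mean of 1178 ± 131 CPM. Within that sum, Mir142 took 53.5% in replicate 1 and 48.5% in replicate 2. Mir223 took 26.3% and 29.7%, and Mir155 took 13.6% and 13.7%. Mir146a followed with 4.30% and 5.63%, and Mir150 with 2.27% and 2.38%. Mir142 and Mir223 thus made up most of the sum in both hearts. The sum rests on reading Mir142 from the opposite strand: with the sense column for every member it was 575 CPM.

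Ratios taken within a heart do not depend on library size. Mir142 exceeded Mir223 by 2.03-fold in replicate 1 (1.86 to 2.22) and by 1.63-fold in replicate 2 (1.51 to 1.76), and these counting intervals did not overlap. The myeloid Mir223 exceeded the lymphocyte Mir150 by 11.6-fold (9.03 to 15.1) and 12.5-fold (10.1 to 15.7). Mir223 exceeded Mir155 by 1.93-fold (1.71 to 2.19) and 2.16-fold (1.95 to 2.41). Apart from the pair with Mir142, the intervals of these ratios overlapped between the hearts.

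Mir155 exceeded Mir150 by 6.0-fold in replicate 1 (4.62 to 7.89) and 5.78-fold in replicate 2 (4.61 to 7.31). Mir155 exceeded Mir146a by 3.17-fold (2.59 to 3.90) and 2.44-fold (2.08 to 2.88), and Mir146a exceeded Mir150 by 1.90-fold (1.40 to 2.59) and 2.37-fold (1.84 to 3.06); these last 2 pairs were added after the levels were seen, to complete the order. Each step in the order from Mir142 to Mir150 had an interval above 1 in both hearts. Reads per molecule were not measured for any miRNA, so the intervals and the spread over pups do not cover that error. An exact sign flip over 2 pups cannot give p below 0.5, and no test was made of these ratios.

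**Figure D3:**
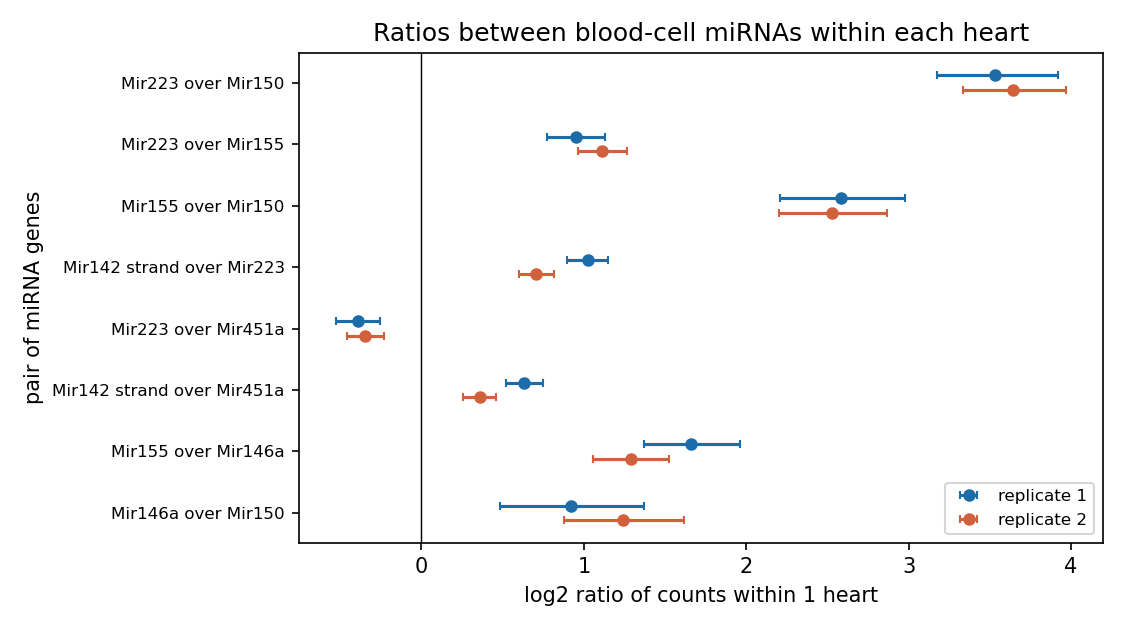
Log2 ratio of the counts of pairs of miRNA genes within each heart (horizontal axis) for replicate 1 (blue) and replicate 2 (orange), with exact 95% counting intervals. Ratios of Mir142 over Mir223 and over Mir451a are lower in replicate 2, at 1.63-fold and 1.28-fold against 2.03-fold and 1.55-fold in replicate 1, and the intervals of every other pair overlap.

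Each member was set against the genes next to it in level. Mir142 lay between Mir27a (628 ± 16.9 CPM) and Mir320 (602 ± 9.88 CPM). Mir223 lay between Mir190a (341 ± 23.7 CPM) and Mir330 (327 ± 4.63 CPM), and Mir155 between Mir300 (169 ± 17 CPM) and the red-cell miRNA Mir144 (160 ± 40.2 CPM). Mir146a lay between Mir302a, a miRNA of pluripotent cells (58.3 ± 8.80 CPM), and Mir323 (57.7 ± 4.89 CPM), and Mir150 between Mir3074-1 (28.8 ± 2.32 CPM) and Mir673 (26.5 ± 0.293 CPM). In each case the ranges over the 2 hearts overlapped, so the exact rank of a member is not fixed by these data. Around Mir146b, genes with 1 to 3 counts in total were tied or nearly tied, and no order could be read.

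Red cells are the other blood lineage that a whole heart holds. Mir451a, the main erythroid miRNA, had 439 CPM in replicate 1 (412 to 466) and 410 CPM in replicate 2 (389 to 432). It exceeded Mir223 by 1.31-fold in replicate 1 and 1.27-fold in replicate 2, and was itself exceeded by Mir142, by 1.55-fold (1.43 to 1.68) and 1.28-fold (1.20 to 1.38). Mir144, its neighbour in the same cluster, had 189 and 132 CPM, and Mir486, which muscle also makes, 77.9 and 66.0 CPM.

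The members summed exceeded the erythroid list of Mir451a, Mir144 and Mir486 by 1.80-fold in replicate 1 and 1.79-fold in replicate 2, and both sums were higher in replicate 1: the erythroid list had 705 CPM in replicate 1 (671 to 740) and 608 CPM in replicate 2 (582 to 634). The difference was 1.17-fold in the members' sum and 1.16-fold in the erythroid sum, and in neither did the counting intervals overlap. The part that the amount of blood in each heart plays in either sum was not tested. Mir486 was not compared in sequence with other loci, so its count, and the erythroid sum, may lack reads that aligned to several places. The direction of the ratio between the lists rests on Mir142: without it, the log2 ratio turned from 0.84 ± 0.00964 to -0.19, that is, in favour of the erythroid list.

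Differences between the hearts were set against all genes. Each gene was put to an exact binomial test, two-sided, given TMM-scaled library sizes, with p adjusted by Benjamini-Hochberg over all features; it sets 1 library against the other at counting error and says nothing of conditions. It called 87 of 616 features with a count, or 14.1%, of which 32, or 5.19% of all tested, were lower in replicate 2. Of the 6 members, 1 was called: Mir142 was lower in replicate 2, by a log2 ratio of -0.37 (counting interval -0.47 to -0.27; adjusted p = 1.66e-13 by the exact test). That is 1 in 6, near the share of all features. Because abundant genes are called more readily, the share was 36.4% among the 217 features at or above the level of Mir150, of which 5 are members.

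No member was both called and past 1.5-fold, and 18 features, 2.92% of those tested, were; the 5 members with counts in both hearts lay within 1.5-fold. Among the same 217 features, 207 lay within 1.5-fold, and 19 had a larger absolute log2 ratio than Mir142; 4 had a lower ratio than it. The median absolute log2 ratio was 0.16 over the 5 members among these features and 0.12 over the 217. It was 0.19 over all 6 members and 0.29 over all 616 features, many of which have few counts. The median log2 ratio was -0.10 over the 6 members and 0.04 over the 616. Of the members, 4 were lower in replicate 2 and 2 were higher, one of which, Mir146b, rests on 3 counts.

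The members that did not pass the exact test had log2 ratios of replicate 2 over replicate 1 of -0.05 for Mir223 (counting interval -0.19 to 0.08, adjusted p = 0.789, exact test) and -0.21 for Mir155 (-0.41 to -0.02, adjusted p = 0.102, exact test). Mir155 had an unadjusted p of 0.0168 by the exact binomial test. Mir146a had a log2 ratio of 0.16 (-0.16 to 0.49, adjusted p = 0.795, exact test) and Mir150 one of -0.15 (-0.63 to 0.32, adjusted p = 0.837, exact test). The interval for Mir150 includes a fall of 1.5-fold, which its depth thus does not separate from no change. In the erythroid list, Mir144 was called lower in replicate 2 (log2 ratio -0.51, adjusted p = 4.85e-07, exact binomial test), and Mir451a and Mir486 were not called, at -0.10 and -0.24.

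**Figure D4:**
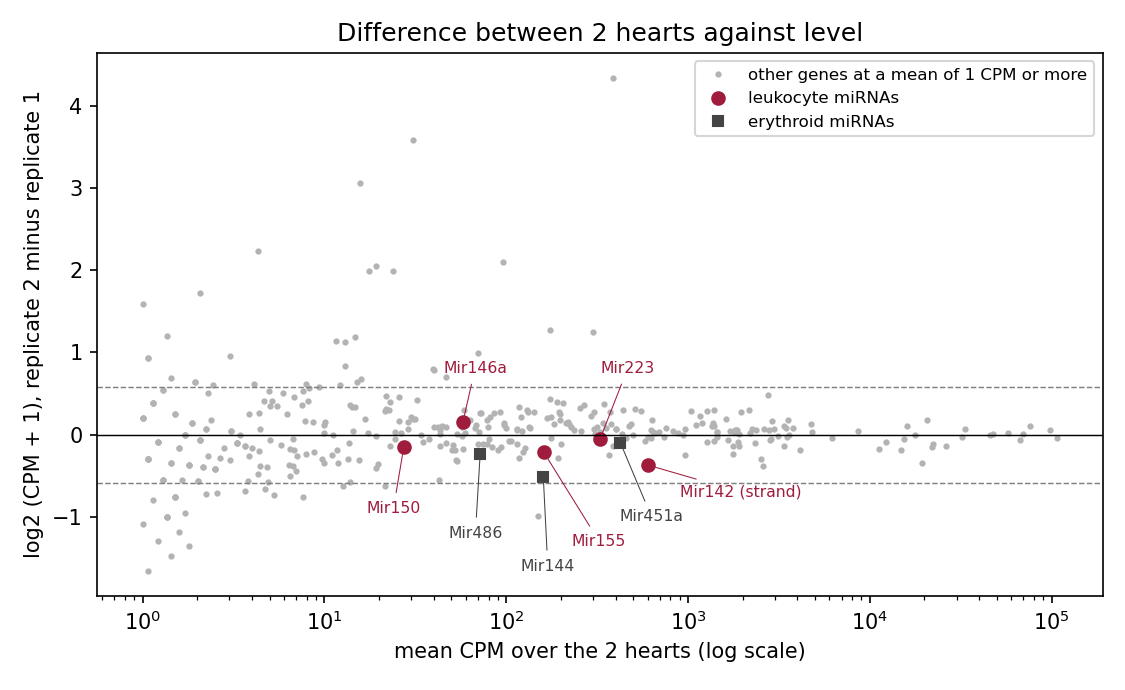
Difference of log2(CPM + 1) between replicate 2 and replicate 1 (vertical axis) against mean CPM (horizontal axis, log scale) for genes at a mean of 1 CPM or more; red circles are leukocyte miRNAs, dark squares erythroid miRNAs, grey points other genes, and dashed lines mark 1.5-fold. The 5 plotted leukocyte miRNAs lie between -0.37 (Mir142) and 0.16 (Mir146a), all inside the dashed lines.

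A further 22 miRNAs that have been studied in immune cells but are made by many tissues were listed beside the members. They held 4.78% ± 0.173 of the sense counts. The members came to 0.118% ± 0.0131 of that total, though their Mir142 reads lie outside it. Mir21a (20582 ± 1761 CPM), a miRNA of fibroblasts and many other cells, led the list of 22. Mir342, hosted by the gene Evl and studied in lymphoid and myeloid cells, had 2761 CPM in replicate 1 and 2254 CPM in replicate 2, above every member in both hearts. It was lower in replicate 2 (log2 ratio -0.29, adjusted p = 3.17e-35, exact binomial test), the direction of Mir142. Mir147, which macrophages induce on activation, had 4 counts in each heart.

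Of these 22, the exact test called 10 of 22, with 4 higher in replicate 2 and 6 lower; 14.1% of all features were called, and most of the 22 are abundant. The 4 higher were Mir21a (log2 ratio 0.17), Mir20a (0.11), Mir10a (0.28) and Mir29a (0.37). The 6 lower were Mir342, Mir181a-2 (-0.99), Mir132 (-0.28), Mir92-1 (-0.25), Mir125a (-0.10) and Mir16-1 (-0.06). Mir15a, the 2 genes Mir181a-1 and Mir181b-2, and Mir17 did not pass, with log2 ratios of 0.06, 0.02, 0.08 and 0.05. The others that did not pass were Mir16-2 (0.03), Mir221 (0.21), Mir222 (-0.01), Mir326 (-0.40), Mir212 (-0.30), Mir181b-1 (-0.26), Mir147 (-0.34) and Mir29b-1 (-0.55). The list's median log2 ratio was -0.04. A mature arm of each of the Mir181, Mir16, Mir29b and Mir92 genes in this list occurs whole at another locus, so their counts are uncertain.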

How the data were processed

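Small RNA (inserts under 30 nt) was sequenced from total RNA of 2 hearts, 1 library each. The authors deposited raw counts of reads for each miRNA gene on mm10, with GENCODE M4 as the annotation per the file headers deposited beside them: both strands, sense and opposite. Aligner, counter and trimming are not given in the sources used here. The 4 summary rows entered neither library sizes nor tests; they held 11.5% and 10.5% of reads as unmapped, 5.93% and 5.62% as outside any sense feature, and 36.6% and 37.1% as aligned to several places. Totals over sense counts, 2323450 and 3487183, set the precision. Of 1973 identifiers, 1894 matched GENCODE M21 (GRCm38, the assembly of mm10); the 79 others had 0 counts.

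Log2 ratios between hearts used CPM plus a pseudocount of 1. Their counting intervals used the total sense counts without the pseudocount. Neither used the TMM factors of the exact test, with which the log2 ratio of Mir142 was -0.39. With 1 group, edgeR's quasi-likelihood test has no residual degrees of freedom, so an exact binomial test (scipy 1.17.1) was run on features with 1 or more counts, given TMM factors from edgeR 4.0.16, at an adjusted p of 0.05. It was tested on simulated data drawn with counting error alone, which cannot show how it behaves with variation between pups. Alternatives were total counts, DESeq2 1.42.0 size factors, a minimum of 10 counts, both strands, other denominators and pseudocounts, and each heart alone. The genes named are the members, their neighbours in level, and the erythroid, immune and heart lists. Members and lists were chosen with earlier results of these data known. Where a gene is at 0, folds use 3 counts per library. Arms of a hairpin are not separated. Both pups share a litter, so the spread does not cover litters.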

Additional observations from a re-analysis of the deposited data

How the results depend on the processing

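The summed level of the members, 1178 CPM, was 547 CPM over all reads of the library and 575 CPM with the sense column for every member; with each heart alone it was 1086 to 1271 CPM. The log2 ratio of members over erythroid miRNAs, 0.84, reversed to -0.19 without Mir142 and was 1.01 without Mir486. By construction each drops a term of 1 sum: Mir142 is the highest member, and Mir486 the lowest gene of the erythroid list. Mir142 was called under all 4 alternatives of the exact test, with adjusted p from 9.42e-14 to 1.93e-12, the main value included, and no other member was called (lowest adjusted p 0.0582, Mir155). The counts of called genes stayed within 1.5 times under these 4. Over all reads, the level of Mir223 was 152 CPM and that of Mir150 was 12.7 CPM. No paired analysis was possible because the series has a single group. Depth limits Mir146b, at 0 and 3 counts.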

Other observations

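The red-cell and muscle miRNA Mir486 was the only gene of the erythroid list with reads on its opposite strand, where the gene Mir3107 lies: 5 of 186 reads in replicate 1 (2.69%, exact Clopper-Pearson interval 0.878% to 6.16%) and 14 of 244 in replicate 2 (5.74%, 3.17% to 9.44%). Mir451a, which has Mir451b on its opposite strand in the same way, had 0 of 1019 and 0 of 1431 reads there. These values were singled out after they were seen.

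Mir181a-1 and Mir181a-2 carry the same miR-181a-5p, whose 23 bases occur whole at both loci. Mir181a-2 fell from 199 CPM in replicate 1 to 99.8 CPM in replicate 2, while Mir181a-1 had 657 and 668 CPM. With the pseudocount of 1 CPM, Mir181a-2 was also the single gene of the immune list whose difference between the hearts passed 1.5-fold. Without the pseudocount, Mir29b-1 (4 and 3 counts) and Mir147 (4 and 4 counts) passed it too.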
